A study of Homo sapiens with 9 samples.

Results

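The lysosome and autophagy genes described here are 53 genes picked by name: 34 encode proteins that work in or on the lysosome, 2 encode transcription factors that switch lysosomal genes on, and 17 encode proteins that build autophagosomes or load them with cargo. Each of the 53 symbols matched 1 Ensembl identifier of the 61806 in the deposited count table, and all 53 passed the filter on low counts, which kept 20932 genes. Counts of single members ran from 401 (TFEB) to 48447, in libraries of 60698684 to 71431723 counts. The cells were HCT116, an established human colorectal cancer cell line, all transfected with a lipid reagent, and libraries were made from total RNA. The groups were cells transfected with ORM1 siRNA 1, cells transfected with ORM1 siRNA 2, and cells transfected with control siRNA, with 3 libraries each. All 9 libraries carry the batch label Day 3, and the labels do not name separate cultures. A p-value here therefore reflects the spread among libraries of the same group, estimated from all 9 libraries together, and that spread may be technical. The question addressed was how lysosomal and autophagy transcripts differed in cells with less ORM1, an acute-phase plasma glycoprotein, and whether both siRNAs gave the same picture.

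Lysosomes are acidic organelles in which hydrolases break down proteins, sugars and lipids. The vacuolar proton pump (V-ATPase) acidifies them, and heavily glycosylated membrane proteins such as LAMP1 and LAMP2 line them. In macroautophagy a double membrane closes around cytoplasm, cargo receptors tie ubiquitinated material to ATG8-family proteins on that membrane, and the finished autophagosome fuses with a lysosome. TFEB and TFE3 are related transcription factors that bind a palindromic E-box, called the CLEAR element, in the promoters of many of these genes, and they are held in the cytoplasm by the kinase mTORC1 when nutrients are plentiful.

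The CLEAR core sequences are shown because they mark which members carry the TFEB and TFE3 motif near their start. RefSeq promoter entries (GRCh38.p14, 250 bases before to 50 after the gene's start) were present for 43 of the 53 genes. Searched on both strands, the 6-base core CACGTG was in 9 of these 43 (20.9%) and in 7.43% of 27305 promoters of the same length. The 7-base form TCACGTG, which contains the core, was in 8 of the 43 (18.6%), against 3.82% of all promoters, and the 10-base palindrome that extends the core by 2 bases on each side (shown in capitals for GAA) was in 2 of the 43 (4.65%), against 0.381%. Members of the 8 with TCACGTG were lower, higher or not called under the siRNAs, as given with each gene below. A match of letters is not evidence of binding. Stretches from 7 of the 8 are printed 5′ to 3′ on the gene's strand, with the matches in capitals.
GAA, chr17:80101488-80101572, plus strand: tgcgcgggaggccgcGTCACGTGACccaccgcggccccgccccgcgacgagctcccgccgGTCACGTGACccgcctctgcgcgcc
MCOLN1, chr19:7522564-7522623, plus strand: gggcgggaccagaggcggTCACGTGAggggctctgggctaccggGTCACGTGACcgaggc
CTSA, chr20:45891274-45891333, plus strand: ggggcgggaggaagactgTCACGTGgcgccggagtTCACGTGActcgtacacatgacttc
NEU1, chr6:31862916-31862975, minus strand: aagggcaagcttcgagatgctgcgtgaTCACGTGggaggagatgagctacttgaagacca
ATP6V0D1, chr16:67481184-67481243, minus strand: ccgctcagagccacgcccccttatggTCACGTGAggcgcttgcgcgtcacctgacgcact
CTSD, chr11:1763942-1764001, minus strand: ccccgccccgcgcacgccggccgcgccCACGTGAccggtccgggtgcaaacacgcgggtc
LAMP1, chr13:113297031-113297117, plus strand: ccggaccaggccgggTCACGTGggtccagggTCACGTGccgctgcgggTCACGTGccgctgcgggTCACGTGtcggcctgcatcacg
The 8th, ATG14, holds 1 match, and the LAMP1 promoter entry holds 6 in all, of which 4 lie in the stretch shown. GAA holds 2 copies of the 10-base palindrome, and MCOLN1 holds 1 copy of it and 1 other match.

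The knockdown and the identity of the cells were checked first. ORM1 had 0, 0 and 5 counts under siRNA 1 and 8, 0 and 12 counts under siRNA 2, against 63, 56 and 59 counts in control. Of 10 colon epithelial markers, EPCAM, CDH1, CLDN7, CDX2 and the keratins KRT8, KRT18 and KRT19 were expressed, whereas VIL1, GPA33 and LGALS4 had at most 31 counts in any library. The 10 markers summed to 3668 to 3842 CPM (the usual depth-scaled read count, with TMM scaling) under siRNA 1 and 3702 to 3908 CPM under siRNA 2, against 4272 to 4573 CPM in control. The 3 keratins were lower and EPCAM, CDH1 and CLDN7 higher under each siRNA by the test, and the part of this in the results below was not tested. The 5 leukocyte markers summed to 0.35 to 0.80 CPM under siRNA 1 and 0.21 to 0.39 CPM under siRNA 2, against 0.39 to 0.62 CPM in control, with CD3E at 0 in every library. The 4 macrophage markers summed to 0.49 to 0.56 CPM under siRNA 1 and 0.26 to 0.70 CPM under siRNA 2, against 1.03 to 1.54 CPM in control. That sum was nearly all CSF1R, which passed the test as lower under each siRNA, while CD163, MRC1 and ADGRE1 had at most 11 counts in any library. The 4 fibroblast markers summed to 47.5 to 49.5 CPM under siRNA 1 and 40.8 to 44.4 CPM under siRNA 2, against 50.9 to 59.0 CPM in control. Nearly all of that was COL1A1, which was lower by the test under siRNA 1, at −0.18 (SE 0.056, adjusted p = 0.0314), and under siRNA 2, at −0.35 (SE 0.056, adjusted p = 0.000577), while COL1A2, COL3A1 and DCN had at most 27 counts in any library. The 3 endothelial markers summed to 0.96 to 1.26 CPM under siRNA 1 and 0.67 to 0.84 CPM under siRNA 2, against 0.79 to 1.65 CPM in control. The part of COL1A1 and CSF1R in the results below was not tested. The low counts of this table favour multiples of 4 (11894 values of 4, against 6787 of 3 and 4317 of 5), for an unknown reason. The ORM1 counts under the siRNAs are of this low size, and ORM1 was barely expressed in control too, at 0.95, 0.90 and 0.89 CPM. The lowest count of a member was 401, and whether larger counts are affected was not tested.

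More members were lower than higher after ORM1 knockdown, by the quasi-likelihood test of edgeR. The members and the wider gene lists below were chosen with earlier results of these data known. The part of that choice in the counts was not tested, so the shares of all genes are given for description only. Every adjusted p below comes from that test, with the Benjamini-Hochberg method over all tested genes. Under siRNA 1, 22 of 53 members were lower and 8 higher at an adjusted p below 0.05, where 14.8% and 15.7% of all 20932 tested genes were lower and higher. Under siRNA 2, 24 members were lower and 9 higher, with 12.6% and 14.2% of all genes. Because abundant genes are called more readily, the shares among the 11109 genes with a mean level of at least 7.12 CPM, that of the lowest member, are the closer comparison: 24% lower and 24.2% higher under siRNA 1, and 19.7% lower and 24.3% higher under siRNA 2. The abundant genes were bounded from below only and were not matched to the members in level. Under both siRNAs 19 members were lower, where 8.41% of all tested genes and 14.2% of the abundant ones were. Under both siRNAs 5 members were higher, where 9.16% and 15.6% were. For the mean of both siRNAs against control, 26 members were lower and 10 higher, with 15.3% and 16.2% of all tested genes, and 23.9% and 26.3% of the abundant ones. Without regard to direction, 30.5% of all tested genes were called under siRNA 1, 26.7% under siRNA 2 and 31.5% for the mean. No member was called in opposite directions by the siRNAs (0.645% of all tested genes were), 15 were called under 1 siRNA alone, and 14 under neither. Both siRNAs are compared with the same 3 control libraries, so their changes are not independent of each other.

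The changes were moderate in size. The median log2 change of the 53 members was −0.137 under siRNA 1 and −0.137 under siRNA 2, beside 0.007 and −0.004 for all tested genes, and 0.001 and 0.017 for the abundant ones. In single libraries the members' median, taken against the mean of the control libraries, was −0.154, −0.150 and −0.125 under siRNA 1, −0.115, −0.095 and −0.113 under siRNA 2 and −0.018, 0.001 and 0.009 in control. The summed level of the 53 genes was 4599, 4659 and 4682 CPM under siRNA 1 and 4680.1, 4751 and 4689.7 CPM under siRNA 2, against 5049.6, 5125 and 5133 CPM in control, so that no knockdown library reached a control library. All siRNA 1 libraries lay below all control libraries for 29 members (21.1% of all tested genes) and above them for 9 (22.6%). For siRNA 2 the numbers were 25 below (19.3% of all tested genes) and 11 above (19.9%). In bulk RNA, fewer cells of a kind and less RNA of a gene per cell cannot be told apart.

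**Figure D1:**
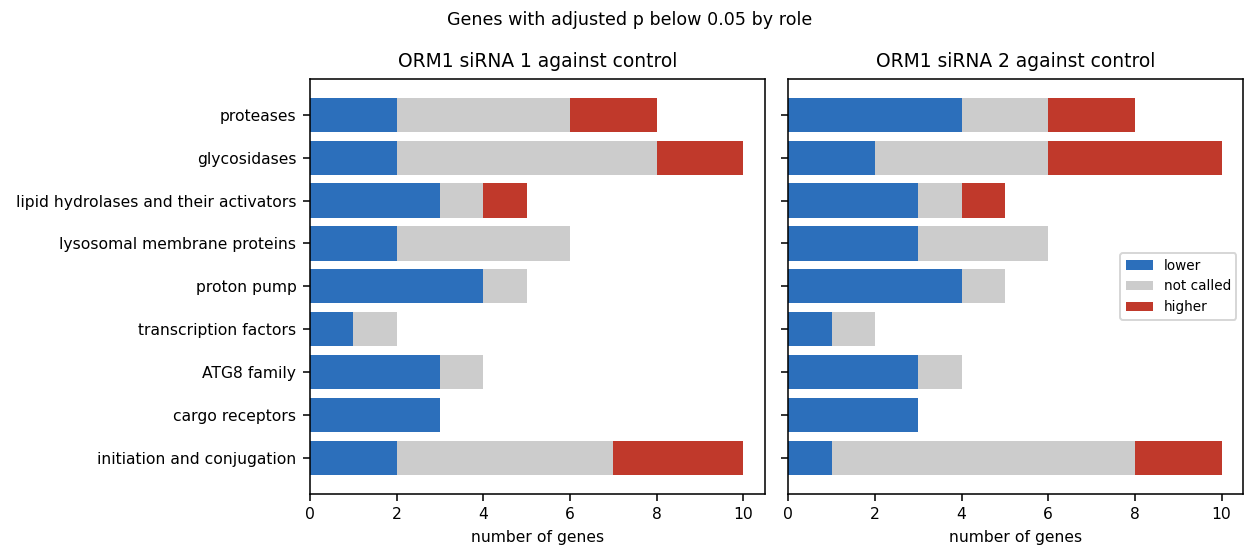
Number of lysosome and autophagy genes that were lower (blue), not called (grey) or higher (red) at an adjusted p below 0.05, by role, under ORM1 siRNA 1 (left) and ORM1 siRNA 2 (right), each against control siRNA. No gene was called higher among the 5 proton pump, 4 ATG8-family, 3 cargo receptor, 2 transcription factor and 6 membrane protein genes. The protease, glycosidase and lipid hydrolase genes and those of initiation and conjugation hold calls in both directions. Among genes of at least 7.12 CPM, 24% were lower and 24.2% higher under siRNA 1, and 19.7% and 24.3% under siRNA 2. Groups this small cannot show that a lack of higher calls belongs to a role.

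Lysosomal proteases were divided in direction: of 8 genes, 2 were lower and 2 higher under siRNA 1, and 4 were lower and 2 higher under siRNA 2. Among the abundant genes 24% were lower and 24.2% higher under siRNA 1, and 19.7% and 24.3% under siRNA 2. The protease counts under siRNA 1 lay near those shares. The same shares apply to the role groups below, with 14.2% lower and 15.6% higher under both siRNAs. CTSL, a cysteine endopeptidase, had 33.8, 32.4 and 32.2 CPM under siRNA 1 and 44.7, 42.0 and 42.3 CPM under siRNA 2, against 57.0, 54.9 and 62.3 CPM in control. The 3 groups did not overlap, with siRNA 1 lowest, and CTSL fell by 0.82 (SE 0.052) on the log2 scale under siRNA 1 and by 0.43 (SE 0.051) under siRNA 2, with adjusted p-values of 2.51e-07 and 6.03e-05. CTSA, a carboxypeptidase that also shields NEU1 and beta-galactosidase in a complex, had 107, 108 and 114 CPM under siRNA 1 and 122, 127 and 123 CPM under siRNA 2, against 146, 144 and 152 CPM in control. It fell under siRNA 1, at −0.42 (SE 0.035), and under siRNA 2, at −0.25 (SE 0.035), and siRNA 1 was lower than siRNA 2 in every library. Of CTSA's exon bases 17.7% overlap another gene on the opposite strand. CTSB, another cysteine protease, had 371, 370.2 and 370.5 CPM under siRNA 1 and 345, 337 and 333 CPM under siRNA 2, against 380.0, 391 and 384 CPM in control. Its siRNA 2 libraries were the lowest and CTSB fell there, at −0.19 (SE 0.025) (adjusted p = 0.000158), whereas its change under siRNA 1 was −0.05 (SE 0.025) (adjusted p = 0.127).

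TPP1, a tripeptidyl peptidase whose loss causes a childhood neuronal storage disease, moved the other way. It had 76.9, 82.9 and 79.2 CPM under siRNA 1 and 92.1, 88.0 and 91.1 CPM under siRNA 2, against 73.5, 68.8 and 73.1 CPM in control. Each siRNA 2 library was above each siRNA 1 library, and each of those above each control library, with log2 changes of 0.15 (SE 0.039) and 0.33 (SE 0.039). The rise under siRNA 1 (adjusted p = 0.0113) did not hold when siRNA 1 replicate 2 or control replicate 2 was left out, at adjusted p-values of 0.0511 to 0.0575. CTSH, an aminopeptidase, rose under siRNA 1 at 0.41 (SE 0.093) (adjusted p = 0.00551) and was at 0.26 (SE 0.094) under siRNA 2 (adjusted p = 0.0573), and CTSC, which activates granule proteases, rose under siRNA 2 at 0.18 (SE 0.053) (adjusted p = 0.0259) and was at 0.14 (SE 0.053) under siRNA 1 (adjusted p = 0.0711). CTSD, the main aspartic protease, fell under siRNA 2 at −0.16 (SE 0.048) (adjusted p = 0.0254), and its change under siRNA 1 was −0.06 (SE 0.048). The siRNA 2 calls of CTSC and CTSD were each lost without any of 4 libraries: siRNA 2 replicates 2 and 3 and control replicates 1 and 2 for CTSC (adjusted p 0.0542 to 0.0954), and siRNA 2 replicate 1 and control replicates 1, 2 and 3 for CTSD (0.0538 to 0.0933). Without siRNA 2 replicate 1 the CTSD change was −0.106. CTSZ, a carboxypeptidase, passed neither test, at −0.10 (SE 0.092) and 0.11 (SE 0.092). Of CTSD's exon bases 41.7% overlap another annotated gene and 38.5% of its 31-base transcript words occur in another gene, and for TPP1 the shares are 11.6% and 10.2%, so their counts depend on how shared reads were treated.

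Among the 10 glycosidases, 2 genes fell under both siRNAs and 2 rose under both, where 14.2% and 15.6% of the abundant genes did. NEU1, the lysosomal sialidase (GRCh38 chromosome 6, 31857659 to 31862906, minus strand), had 22.8, 28.3 and 27.5 CPM under siRNA 1 and 24.9, 27.5 and 27.0 CPM under siRNA 2, against 45.0, 46.6 and 47.7 CPM in control. It was at 56.4% and 57.0% of control, with log2 changes of −0.83 (SE 0.075) and −0.81 (SE 0.075), and the adjusted p-values were 5.39e-06 and 9.72e-06. No knockdown library overlapped a control library. FUCA1, an alpha-fucosidase, had 37.7, 37.3 and 34.8 CPM under siRNA 1 and 38.2, 39.6 and 40.2 CPM under siRNA 2, against 54.6, 56.2 and 54.9 CPM in control. Its changes were −0.59 (SE 0.044) and −0.49 (SE 0.044), with adjusted p-values of 9.56e-07 and 6.90e-06. Its secreted relative FUCA2 had 65.7, 69.6 and 68.1 CPM under siRNA 1 and 74.7, 72.7 and 69.0 CPM under siRNA 2, against 64.0, 59.5 and 61.3 CPM in control. FUCA2 rose while FUCA1 fell, at 0.14 (SE 0.042) and 0.23 (SE 0.042), and its call under siRNA 1 (adjusted p = 0.0252) did not hold when siRNA 1 replicate 2 or 3 or control replicate 2 or 3 was left out, at adjusted p-values of 0.067 to 0.0972.

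GAA, the acid alpha-glucosidase that degrades lysosomal glycogen and is deficient in Pompe disease (GRCh38 chromosome 17, 80101556 to 80119879, plus strand), had 174, 187 and 179 CPM under siRNA 1 and 158, 164 and 158 CPM under siRNA 2, against 133, 130.4 and 122 CPM in control. It rose to 140.2% and 124% of control, with log2 changes of 0.49 (SE 0.039) and 0.32 (SE 0.039) (adjusted p = 1.90e-06 and 8.45e-05), the largest rise of the 53 genes under siRNA 1. GAA, with 2 copies of the 10-base palindrome printed above, was the only gene of the 8 with TCACGTG that was called higher. MCOLN1, the other gene with the palindrome, was called under neither siRNA, like ATG14. NEU1 and CTSA were lower under both siRNAs, LAMP1 under siRNA 1 alone, and CTSD and ATP6V0D1 under siRNA 2 alone. MANBA and MAN2B1, the beta- and alpha-mannosidases, rose under siRNA 2, at 0.19 (SE 0.056) and 0.23 (SE 0.057), and were at −0.01 (SE 0.056) and 0.15 (SE 0.057) under siRNA 1. MANBA had 29.6, 29.8 and 28.2 CPM under siRNA 1 and 33.8, 33.3 and 33.6 CPM under siRNA 2, against 31.4, 27.7 and 28.9 CPM in control. Its siRNA 2 libraries stood above all others, but the call did not hold when siRNA 2 replicate 1 or 3 or control replicate 2 or 3 was left out (adjusted p 0.058 to 0.0912). GLA, the alpha-galactosidase of Fabry disease, had 25.7, 30.8 and 29.5 CPM under siRNA 1 and 34.3, 35.5 and 33.3 CPM under siRNA 2, against 33.2, 29.9 and 30.98 CPM in control. Neither difference from control passed the test, at −0.13 (SE 0.069) and 0.13 (SE 0.069), while every siRNA 1 library lay below every siRNA 2 library. HEXA, GLB1 and GUSB, the hexosaminidase A chain, the beta-galactosidase and the beta-glucuronidase, passed the test under neither siRNA, with changes between −0.17 (GLB1) and −0.0084 (HEXA) under siRNA 1 and between −0.19 (GLB1) and 0.02 (HEXA) under siRNA 2. The summed level of the 10 glycosidases was 547 ± 12.2 CPM under siRNA 1 and 544 ± 11.4 CPM under siRNA 2, against 531 ± 5.0 CPM in control (SD, n = 3, as for each ± below).

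Of the 5 lipid hydrolase and activator genes, 3 fell and 1 rose under both siRNAs. SMPD1, the acid sphingomyelinase of Niemann-Pick disease, had 9.60, 8.27 and 10.7 CPM under siRNA 1 and 8.93, 8.19 and 8.69 CPM under siRNA 2, against 12.2, 13.0 and 13.6 CPM in control. The knockdown libraries stayed below the control libraries, with log2 changes of −0.44 (SE 0.11) and −0.59 (SE 0.11). PSAP, the precursor of the saposins that present lipids to the hydrolases, had 605, 611 and 622 CPM under siRNA 1 and 594, 608 and 591 CPM under siRNA 2, against 727, 727 and 734 CPM in control. It fell at −0.25 (SE 0.023) and −0.29 (SE 0.023). GM2A, the activator protein of ganglioside breakdown, had 52.7, 54.8 and 51.7 CPM under siRNA 1 and 53.2, 51.7 and 47.5 CPM under siRNA 2, against 65.4, 64.0 and 64.2 CPM in control. Its changes were −0.28 (SE 0.045) and −0.34 (SE 0.045), and no knockdown library overlapped a control library. PPT1, a thioesterase that removes palmitate from proteins, instead had 55.2, 57.0 and 57.6 CPM under siRNA 1 and 63.8, 67.0 and 65.9 CPM under siRNA 2, against 48.9, 51.4 and 54.7 CPM in control. PPT1 rose under siRNA 2 at 0.34 (SE 0.044) (adjusted p = 0.000114), while its call under siRNA 1 (0.13 (SE 0.045), adjusted p = 0.042) was lost without any of 7 libraries, which were siRNA 1 replicates 2 and 3, all siRNA 2 replicates and control replicates 1 and 2, at adjusted p-values of 0.0534 to 0.151. Of PPT1's exon bases 23.4% overlap CAP1 on the opposite strand. ASAH1, the acid ceramidase, passed neither test, at −0.04 (SE 0.043) and −0.01 (SE 0.043).

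**Figure D2:**
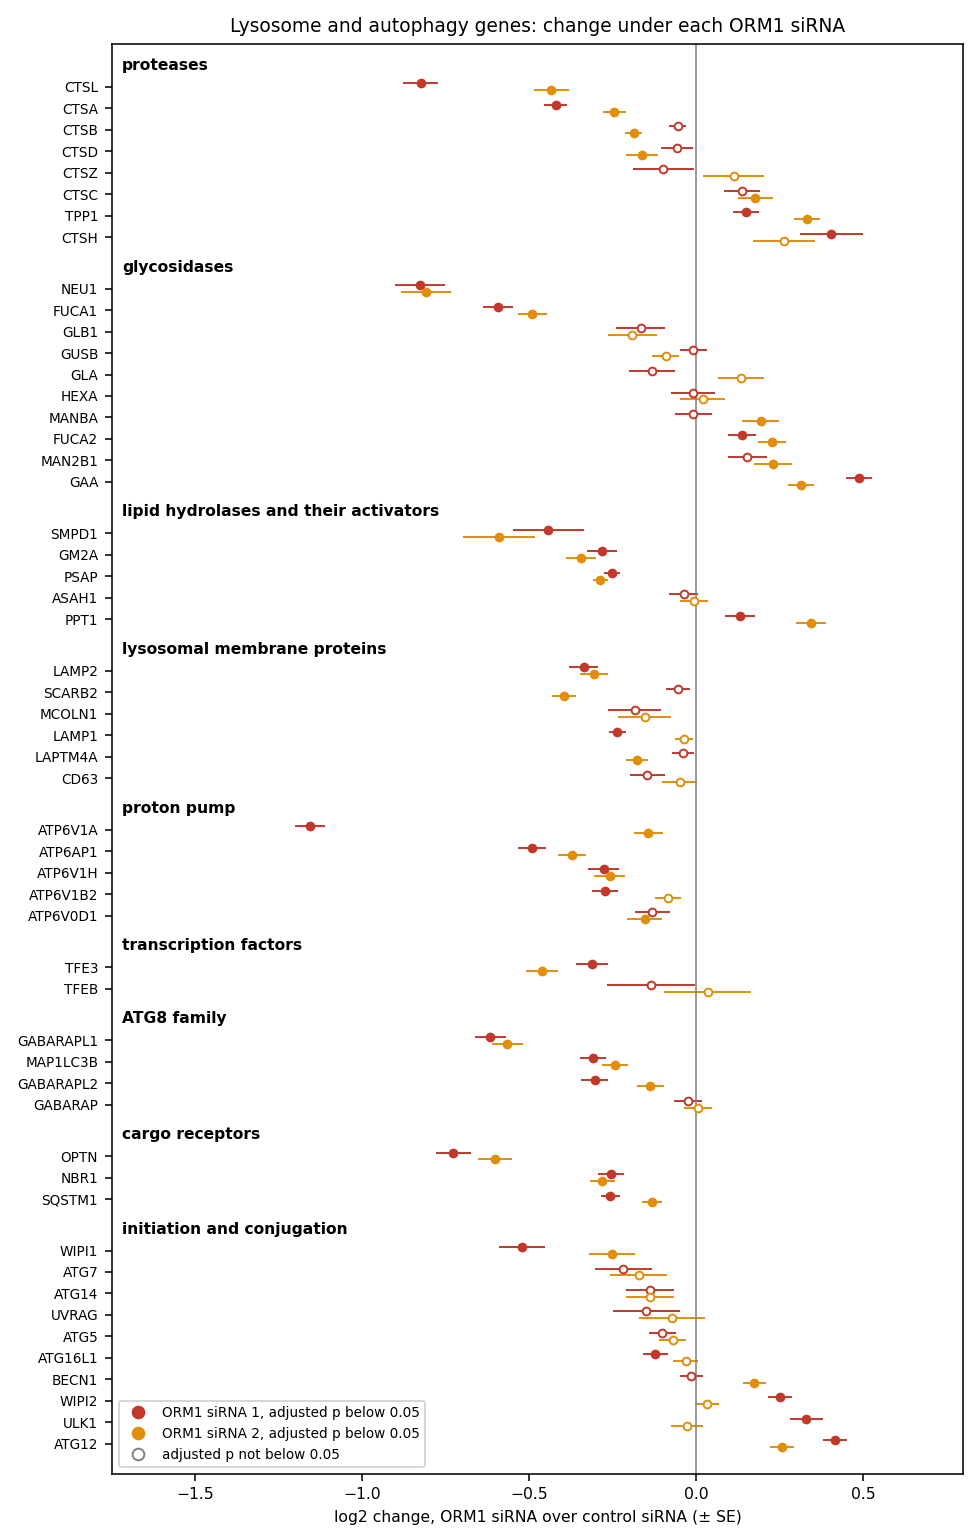
Log2 change (x axis, ± SE) of each of the 53 genes (rows, grouped by role) under ORM1 siRNA 1 (red) and ORM1 siRNA 2 (orange) over control siRNA; filled points have an adjusted p below 0.05. ATP6V1A lies at −1.16 under siRNA 1 and −0.14 under siRNA 2, whereas NEU1, FUCA1, OPTN and GABARAPL1 lie close together under both.

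Of the 6 lysosomal membrane protein genes, 2 were lower under siRNA 1, 3 under siRNA 2, and none was higher under either. LAMP2, which also serves chaperone-mediated autophagy, had 80.1, 78.4 and 80.8 CPM under siRNA 1 and 87.1, 76.7 and 80.8 CPM under siRNA 2, against 98.7, 102 and 101 CPM in control. LAMP2 was the member of this group that fell under both, at −0.34 (SE 0.042) and −0.31 (SE 0.042). LAMP1 had 190.4, 186 and 189.8 CPM under siRNA 1 and 212, 218 and 220.2 CPM under siRNA 2, against 221, 222 and 223 CPM in control. It fell under siRNA 1 at −0.24 (SE 0.026) (adjusted p = 3.10e-05), its change under siRNA 2 was −0.04 (SE 0.026) (adjusted p = 0.379), and siRNA 1 was lower than siRNA 2 by the direct test, at −0.20 (SE 0.026) (adjusted p = 0.000281). SCARB2, or LIMP-2, which carries beta-glucocerebrosidase to lysosomes, had 123, 120.1 and 122 CPM under siRNA 1 and 97.0, 95.4 and 96.5 CPM under siRNA 2, against 123, 134 and 123 CPM in control. Here siRNA 2 was the lower group, with a fall at −0.40 (SE 0.036) under siRNA 2 and −0.05 (SE 0.036) under siRNA 1 (adjusted p = 0.306), and siRNA 1 over siRNA 2 was 0.34 (SE 0.036) (adjusted p = 5.53e-05). LAPTM4A, a small membrane protein of late endosomes, had 129, 128 and 132 CPM under siRNA 1 and 112, 119 and 121 CPM under siRNA 2, against 133, 134 and 132 CPM in control. It fell under siRNA 2 at −0.18 (SE 0.033) and was at −0.04 (SE 0.033) under siRNA 1, although all siRNA 1 libraries lay below the control libraries. The tetraspanin CD63 and the calcium channel MCOLN1, whose promoter holds the 10-base palindrome, passed the test under neither siRNA, at −0.15 (SE 0.053) and −0.05 (SE 0.052) for CD63 and −0.18 (SE 0.079) and −0.15 (SE 0.079) for MCOLN1. CD63 (adjusted p = 0.055 under siRNA 1) was called lower there by DESeq2, at an adjusted p of 0.0131. It was also called there with a 1 CPM filter, RLE scaling, only the groups compared or a replicate block. Leaving out siRNA 1 replicate 3, siRNA 2 replicate 3 or control replicate 1 gave the same call. MCOLN1 was called lower when the fit held only siRNA 1 and control (adjusted p = 0.0406). Without siRNA 2 replicate 1 it was called under siRNA 1 (0.0384) and siRNA 2 (0.0228).

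The proton pump held the member with the widest gap between the siRNAs. ATP6V1A, the catalytic subunit of the pump's cytosolic sector (GRCh38 chromosome 3, 113747019 to 113812056, plus strand), had 38.2, 39.8 and 43.2 CPM under siRNA 1 and 83.1, 80.9 and 80.5 CPM under siRNA 2, against 91.1, 91.2 and 87.8 CPM in control. It was at 44.8% of control under siRNA 1 and 90.5% under siRNA 2, with changes of −1.16 (SE 0.044) (adjusted p = 4.34e-09) and −0.14 (SE 0.043) (adjusted p = 0.0267), and siRNA 1 over siRNA 2 was −1.01 (SE 0.044) (adjusted p = 5.68e-08). The call under siRNA 2 did not hold when siRNA 2 replicate 2 or 3 or control replicate 1 or 2 was left out, at adjusted p-values of 0.0716 to 0.0869. ATP6AP1, an accessory subunit needed for pump assembly, had 69.1, 68.0 and 71.6 CPM under siRNA 1 and 73.9, 75.9 and 76.9 CPM under siRNA 2, against 96.3, 93.3 and 104 CPM in control. It fell under both siRNAs, at −0.49 (SE 0.041) and −0.37 (SE 0.041), and no knockdown library overlapped control. ATP6V1H, a regulatory subunit of the same cytosolic sector, had 39.3, 41.2 and 39.7 CPM under siRNA 1 and 41.1, 42.4 and 38.4 CPM under siRNA 2, against 48.0, 50.0 and 47.7 CPM in control. Its changes of −0.28 (SE 0.047) and −0.26 (SE 0.046) were close to each other. ATP6V1B2, the nucleotide-binding subunit beside ATP6V1A, had 68.3, 72.4 and 69.4 CPM under siRNA 1 and 78.0, 84.0 and 77.5 CPM under siRNA 2, against 85.5, 83.3 and 85.0 CPM in control. It fell under siRNA 1 at −0.27 (SE 0.039) and was at −0.08 (SE 0.039) under siRNA 2 (adjusted p = 0.138). ATP6V0D1, of the membrane sector, was called under siRNA 2 alone, at −0.15 (SE 0.052) (adjusted p = 0.0477), against −0.13 (SE 0.052) under siRNA 1 (adjusted p = 0.0799). That call did not hold when siRNA 1 replicate 2 or 3, siRNA 2 replicate 1 or 2, or control replicate 2 or 3 was left out, at adjusted p-values of 0.0583 to 0.163.

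The 16 other V-ATPase and accessory genes were also measured. Of them 9 were lower and 0 higher under siRNA 1, and 6 lower and 0 higher under siRNA 2, with medians of −0.234 and −0.147. For this list and those below, the shares of all tested genes were 14.8% lower and 15.7% higher under siRNA 1 and 12.6% lower and 14.2% higher under siRNA 2, and those of the abundant genes 24%, 24.2%, 19.7% and 24.3% in the same order. ATP6V0C, which forms the proteolipid ring, was at 62.1 ± 1.8 CPM under siRNA 1 and 90.2 ± 1.7 CPM under siRNA 2, against 102 ± 6.1 CPM in control, and for the mean of both siRNAs it fell by 0.45 on the log2 scale (adjusted p = 2.52e-06). ATP6V1D, of the central stalk, was at 36.4 ± 1.2 and 41.7 ± 2.2 CPM under siRNAs 1 and 2, against 52.0 ± 1.1 CPM in control. ATP6V1G2, a stalk subunit mainly of neurons, was barely expressed, at 0.455 ± 0.17 and 0.914 ± 0.22 CPM against 1.24 ± 0.20 CPM, and its averaged call (adjusted p = 0.0185) did not hold once control replicate 1 or 2 was left out (adjusted p 0.0554 to 0.0871). The summed level of these 16 genes was 753 ± 10.9 CPM under siRNA 1 and 818 ± 17.4 CPM under siRNA 2, against 934 ± 10.3 CPM in control.

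**Figure D3:**
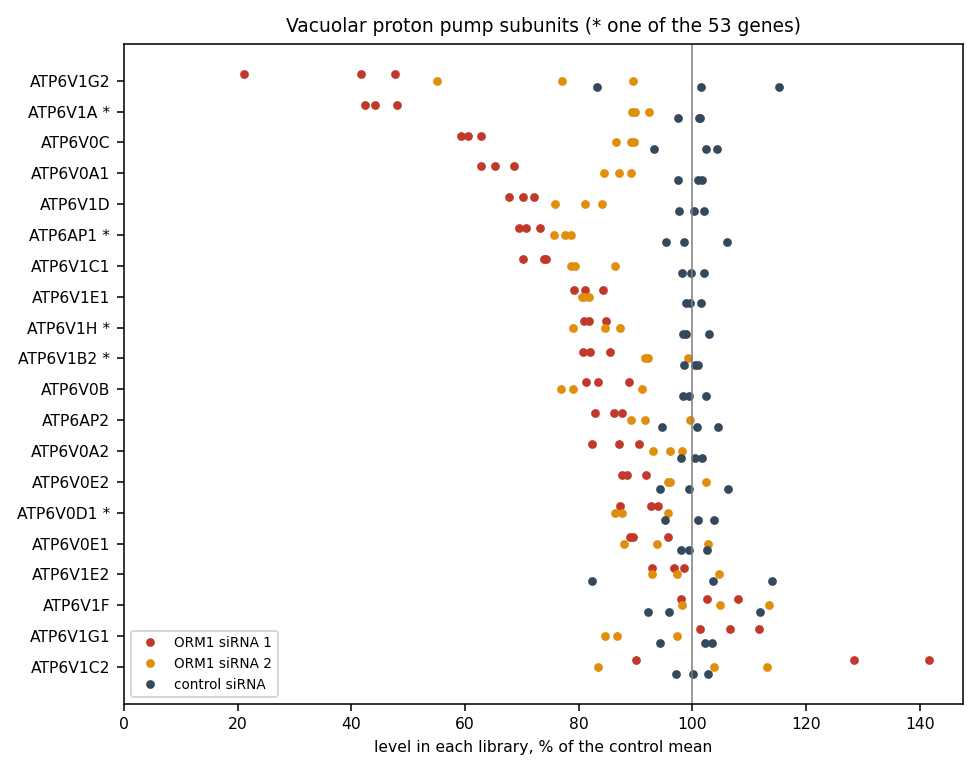
Level of the vacuolar proton pump and accessory genes with a control mean of at least 1 CPM, in each library as a percentage of the control mean (x axis), for ORM1 siRNA 1 (red), ORM1 siRNA 2 (orange) and control siRNA (dark), 3 points each; stars mark the 5 genes of the 53. The siRNA 1 points of ATP6V1A average 44.8%, while its siRNA 2 points average 90.5%.

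TFEB itself did not pass the test and TFE3 was lower. TFEB had 6.53, 6.62 and 6.72 CPM under siRNA 1 and 8.84, 7.24 and 6.30 CPM under siRNA 2, against 7.52, 6.63 and 7.67 CPM in control. The groups overlapped, with changes of −0.14 (SE 0.13) (adjusted p = 0.499) and 0.04 (SE 0.13) (adjusted p = 0.888). TFE3 had 29.8, 28.7 and 27.7 CPM under siRNA 1 and 26.4, 25.3 and 26.1 CPM under siRNA 2, against 35.9, 35.7 and 35.5 CPM in control. Its knockdown libraries lay below the control libraries, and it fell at −0.31 (SE 0.048) under siRNA 1 and −0.46 (SE 0.049) under siRNA 2 (adjusted p = 0.000369 and 2.38e-05). mRNA levels do not show where these factors are in the cell.

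Of the 29 regulators and relatives of TFEB, 4 were higher and 10 lower under siRNA 1, and 4 higher and 7 lower under siRNA 2, with medians of −0.074 and −0.022, nearer to 0 than those of the 53 genes. Among abundant genes 24% were lower and 24.2% higher under siRNA 1, and 19.7% lower and 24.3% higher under siRNA 2. NPRL3, a subunit of the GATOR1 complex that restrains mTORC1, was higher, at 39.4 ± 2.6 and 35.4 ± 2.2 CPM under siRNAs 1 and 2 against 27.9 ± 2.4 CPM in control. LAMTOR3, part of the Ragulator scaffold that recruits mTORC1 to lysosomes, was lower, at 18.3 ± 2.1 and 21.1 ± 1.3 CPM against 26.1 ± 1.1 CPM. PPP3CA, a catalytic subunit of calcineurin, which dephosphorylates TFEB, was higher, at 194 ± 2.9 and 175 ± 10.2 CPM against 152 ± 1.9 CPM. For the mean of both siRNAs these 3 genes had adjusted p-values of 0.000307, 0.00103 and 5.4e-05 in that order.

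Among ATG8-family genes, whose products are conjugated to the autophagosome membrane, 3 of 4 fell under both siRNAs and GABARAP did not. GABARAPL1 had 39.1, 36.2 and 35.9 CPM under siRNA 1 and 38.8, 38.4 and 38.1 CPM under siRNA 2, against 55.5, 59.6 and 55.4 CPM in control. It was at 65.3% and 67.6% of control, with log2 changes of −0.62 (SE 0.047) and −0.57 (SE 0.047). MAP1LC3B, or LC3B, the usual marker of autophagosomes, had 126, 131 and 124 CPM under siRNA 1 and 137, 138 and 125 CPM under siRNA 2, against 157, 158 and 157 CPM in control. It fell at −0.31 (SE 0.039) and −0.24 (SE 0.039), without overlap with control. GABARAPL2 had 46.8, 47.2 and 47.0 CPM under siRNA 1 and 51.2, 51.3 and 55.7 CPM under siRNA 2, against 58.6, 57.9 and 57.4 CPM in control. Its fall was −0.30 (SE 0.041) under siRNA 1 and −0.14 (SE 0.041) under siRNA 2 (adjusted p = 0.0247), and the second did not hold when siRNA 2 replicate 1 or 2 or control replicate 1 or 2 was left out (adjusted p 0.0623 to 0.0954). GABARAP had 74.2, 76.0 and 77.7 CPM under siRNA 1 and 74.8, 80.4 and 77.2 CPM under siRNA 2, against 75.9, 74.4 and 81.3 CPM in control. Those groups overlapped, at −0.02 (SE 0.041) and 0.00 (SE 0.041) (adjusted p = 0.732 and 0.953).

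Per kilobase of exon (union of GENCODE 29 exons), the level of GABARAP was 33.5 ± 0.77 CPM under siRNA 1 and 34.2 ± 1.2 CPM under siRNA 2, against 34.1 ± 1.6 CPM in control, and that of GABARAPL1 was 9.08 ± 0.43 and 9.40 ± 0.084 CPM against 13.9 ± 0.58 CPM. On this scale MAP1LC3B (23.9 ± 0.73 and 25.1 ± 1.4 CPM per kilobase against 29.6 ± 0.14) and GABARAPL2 (15.5 ± 0.068 and 17.4 ± 0.85 against 19.1 ± 0.20) lay between them. Of GABARAP's exon bases 30.5% overlap another annotated gene, and 29.7% of its 31-base words occur elsewhere, while GABARAPL1 shares 1.64% of its words and MAP1LC3B 6.12%. The gene with the most words in common was GABARAPL3 for GABARAPL1 and MAP1LC3B2 for MAP1LC3B.

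All 3 cargo receptors fell under both siRNAs, though 20.7% of SQSTM1's exon bases overlap another gene on the opposite strand. OPTN, optineurin, which links damaged mitochondria and bacteria to autophagosomes (GRCh38 chromosome 10, 13099449 to 13138308, plus strand), had 28.2, 30.6 and 30.7 CPM under siRNA 1 and 30.7, 34.0 and 32.8 CPM under siRNA 2, against 48.7, 50.2 and 49.2 CPM in control. It was at 60.4% and 65.8% of control, with log2 changes of −0.73 (SE 0.052) and −0.60 (SE 0.052) (adjusted p = 7.32e-07 and 5.22e-06). NBR1, a receptor of ubiquitinated aggregates, had 98.4, 97.1 and 91.0 CPM under siRNA 1 and 95.4, 95.1 and 91.0 CPM under siRNA 2, against 111, 114 and 118 CPM in control. SQSTM1, or p62, which carries ubiquitinated cargo and is itself degraded with it, had 307, 325 and 316 CPM under siRNA 1 and 345, 336 and 352 CPM under siRNA 2, against 374, 383 and 375 CPM in control. Neither overlapped control, with changes of −0.25 (SE 0.038) and −0.28 (SE 0.038) for NBR1 and −0.26 (SE 0.029) and −0.13 (SE 0.029) for SQSTM1, and SQSTM1 was lower under siRNA 1 than under siRNA 2, at −0.12 (SE 0.029) (adjusted p = 0.0114).

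**Figure D4:**
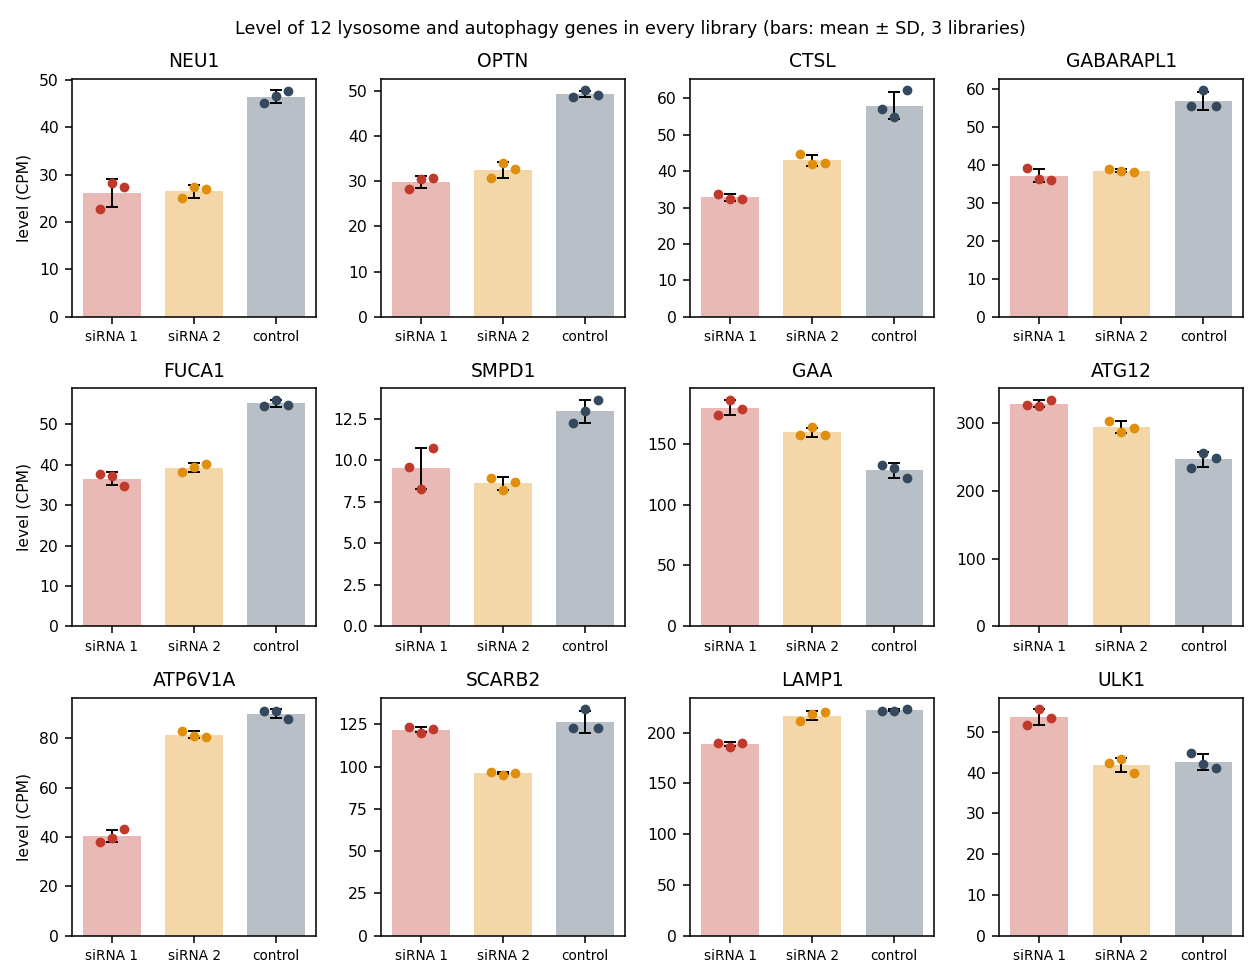
Level in CPM (y axis, from 0) of 12 of the genes in every library (points) with the mean ± SD of 3 libraries (bars), for ORM1 siRNA 1, ORM1 siRNA 2 and control siRNA. NEU1, OPTN, CTSL, GABARAPL1, FUCA1 and SMPD1 are lower in every knockdown library than in control, GAA and ATG12 are higher, and ATP6V1A, SCARB2, LAMP1 and ULK1 differ between the siRNAs.

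Of 10 initiation and conjugation genes, 2 were lower and 3 higher under siRNA 1, and 1 lower and 2 higher under siRNA 2. Among the abundant genes 24% were lower and 24.2% higher under siRNA 1, and 19.7% and 24.3% under siRNA 2. ATG12, a ubiquitin-like protein that is joined to ATG5, had 327, 325 and 335 CPM under siRNA 1 and 304, 287 and 293 CPM under siRNA 2, against 235, 257 and 248 CPM in control. It rose under both siRNAs, at 0.42 (SE 0.035) and 0.26 (SE 0.035) (adjusted p = 3.00e-06 and 0.000183), and the 3 groups did not overlap. WIPI1, a lipid-binding protein of the early autophagosome, had 17.3, 18.2 and 17.4 CPM under siRNA 1 and 21.9, 19.3 and 22.4 CPM under siRNA 2, against 24.7, 25.5 and 25.7 CPM in control. It fell at −0.52 (SE 0.069) and −0.25 (SE 0.069), and the siRNA 2 call (adjusted p = 0.0165) did not hold when siRNA 2 replicate 2 or control replicate 2 or 3 was left out (adjusted p 0.0539 to 0.0595). Of WIPI1's exon bases 24.3% overlap another gene on the opposite strand. WIPI2, its relative that recruits ATG16L1, had 84.4, 88.7 and 89.9 CPM under siRNA 1 and 74.4, 74.8 and 76.8 CPM under siRNA 2, against 75.8, 73.8 and 71.3 CPM in control. ULK1, the kinase that starts autophagy, had 51.6, 55.6 and 53.5 CPM under siRNA 1 and 42.2, 43.3 and 39.98 CPM under siRNA 2, against 44.7, 42.1 and 41.0 CPM in control. WIPI2 and ULK1 rose under siRNA 1, at 0.25 (SE 0.036) and 0.33 (SE 0.049), and were at 0.03 (SE 0.036) and −0.03 (SE 0.049) under siRNA 2 (adjusted p = 0.598 and 0.758).

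BECN1, a scaffold of the lipid kinase complex that acts after ULK1, had 59.0, 57.9 and 59.6 CPM under siRNA 1 and 68.0, 67.3 and 66.1 CPM under siRNA 2, against 61.2, 59.2 and 58.0 CPM in control. It rose under siRNA 2 at 0.17 (SE 0.034) (adjusted p = 0.00236) and was at −0.01 (SE 0.034) under siRNA 1. ATG16L1, which places the ATG12-ATG5 conjugate on the membrane, was called lower under siRNA 1 alone, at −0.12 (SE 0.037) (adjusted p = 0.026), and the call did not hold when siRNA 1 replicate 1, 2 or 3 or control replicate 1 was left out, at adjusted p-values of 0.0541 to 0.107. ATG5, ATG7, ATG14 and UVRAG passed the test under neither siRNA, with changes of −0.10, −0.22, −0.14 and −0.15 under siRNA 1 and −0.07, −0.17, −0.14 and −0.07 under siRNA 2. ATG14, whose promoter holds 1 TCACGTG match, encodes the subunit that sends the lipid kinase to sites of autophagosome formation, and UVRAG its alternative partner in late endosomes.

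Tested directly against each other, siRNA 1 was lower than siRNA 2 for 13 members and higher for 7, where 9.83% and 8.09% of all tested genes (17.5% and 12.5% of the abundant ones) were, and 17.9% in either direction. The 13 lower under siRNA 1 were ATP6V1A, CTSL, WIPI1, GLA, PPT1, MANBA, LAMP1, BECN1, ATP6V1B2, TPP1, CTSA, GABARAPL2 and SQSTM1, with log2 differences between −1.01 (ATP6V1A) and −0.12 (SQSTM1). The 7 higher under siRNA 1 were ULK1, SCARB2, WIPI2, GAA, ATG12, LAPTM4A and CTSB, between 0.13 (CTSB) and 0.36 (ULK1). For TPP1 and PPT1 both siRNAs were above control and siRNA 2 the more so, whereas for GAA and ATG12 siRNA 1 was the higher of the siRNAs. The calls between the siRNAs of WIPI1, GLA, MANBA, GABARAPL2, SQSTM1 and LAPTM4A were lost when single libraries were left out, at adjusted p-values of 0.0511 to 0.0875.

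The remaining genes of the pathway were read from wider lists of lysosome and autophagy genes. Of 47 tested genes for other lysosomal proteins, 24 were lower and 5 higher under siRNA 1, and 16 lower and 5 higher under siRNA 2, with medians of −0.201 and −0.075. CTSK, a collagen-degrading cathepsin, was at 6.49 ± 1.2 CPM under siRNA 1 and 5.72 ± 0.17 CPM under siRNA 2, against 10.6 ± 1.1 CPM in control. PPT2, a thioesterase related to PPT1, was lower too, unlike PPT1, at 14.4 ± 1.7 and 14.6 ± 1.3 CPM against 24.6 ± 1.6 CPM. CTSS, a cathepsin of antigen-presenting cells, had 20, 0 and 10 counts under siRNA 1 and 22, 26 and 26 counts under siRNA 2, against 74, 40 and 61 counts in control, and its averaged call (adjusted p = 0.0243) did not hold once control replicate 1 or 3 was left out (adjusted p 0.0729 to 0.103). The macrophage marker values given above move with CTSS and CTSK, and their part in these 2 results was not tested.

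Of 34 tested genes for other autophagy proteins, 19 were lower and 3 higher under siRNA 1, and 16 lower and 0 higher under siRNA 2, with medians of −0.160 and −0.140. ATG4D, a protease that processes ATG8 proteins, was at 23.3 ± 1.7 and 25.7 ± 1.3 CPM under siRNAs 1 and 2, against 35.5 ± 1.9 CPM in control. ATG2A, which transfers lipids to the growing autophagosome, was at 33.2 ± 2.4 and 32.2 ± 1.4 CPM against 46.1 ± 4.4 CPM, and ATG16L2, a relative of ATG16L1, at 20.02 ± 0.72 and 19.4 ± 1.2 CPM against 26.3 ± 1.3 CPM. Of 22 genes for lysosome fusion and positioning, 10 were lower and 1 higher under siRNA 1, and 12 lower and 0 higher under siRNA 2, with medians of −0.124 and −0.153. VPS11, a core subunit of the HOPS tether, was at 25.7 ± 0.48 and 32.7 ± 0.73 CPM against 38.5 ± 2.3 CPM, the fusion protein STX8 at 9.82 ± 0.86 and 11.6 ± 0.22 CPM against 14.5 ± 0.83 CPM, and BLOC1S2, a subunit shared by complexes that move lysosomes, at 49.1 ± 1.7 and 51.0 ± 1.3 CPM against 65.3 ± 1.9 CPM. Each of these 6 genes was lower under both siRNAs by the test.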

How the data were processed

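Total RNA of HCT116 cells was sequenced in 9 libraries. The authors deposited 1 table of read counts per Ensembl gene, with no normalization per its values. The labels name hg19 in the submitters' processing notes; no source used here names the aligner, the counter or the use of strand. Gene coordinates printed here come from the GRCh38 annotation (GENCODE 29) and promoters from RefSeq, and no coordinate was taken from the counts.

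All counts were fitted together with edgeR 4.0.16 in R 4.3.3: genes kept by filterByExpr, TMM scaling, 3 groups, quasi-likelihood tests, and Benjamini-Hochberg adjustment over 20932 genes with a threshold of 0.05. Levels are TMM-scaled CPM, the usual depth-scaled count, and standard errors are the log2 change divided by the root of F. Depth was 60698684 to 71431723 counts per library. The fit was tested on simulated data. Alternatives used DESeq2 1.42.0, limma 3.58.1, other scalings and filters, and left-out libraries. Values in every library are given for members called alike under both siRNAs or called between siRNAs, for TFEB, TFE3 and the ATG8 family, and other genes named are ORM1, markers and up to 3 called genes of each wider list with the largest mean change. A few other members are described by their values too. The members and lists were chosen with earlier results of these data known.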

Additional observations from a re-analysis of the deposited data

Results flagged for a closer look

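The direct test between the siRNAs found 20 of 53 genes whose response differed. Of them 13 were lower under siRNA 1, where 9.83% of all tested genes and 17.5% of those of at least 7.12 CPM were. The other 7 were higher, where 8.09% and 12.5% were. The log2 difference, siRNA 1 over siRNA 2, was −1.013 for ATP6V1A, −0.391 for CTSL, −0.268 for WIPI1, −0.265 for GLA, −0.213 for PPT1, −0.202 for MANBA, −0.199 for LAMP1, −0.189 for ATP6V1B2, −0.189 for BECN1, −0.181 for TPP1, −0.176 for CTSA, −0.167 for GABARAPL2 and −0.124 for SQSTM1. It was 0.357 for ULK1, 0.341 for SCARB2, 0.219 for WIPI2, 0.172 for GAA, 0.159 for ATG12, 0.137 for LAPTM4A and 0.132 for CTSB. Each of these had an adjusted p below 0.05 by edgeR's quasi-likelihood test. The calls of WIPI1, GLA, MANBA, GABARAPL2, SQSTM1 and LAPTM4A were lost when single libraries were left out. For MANBA the loss came without any of 6 libraries, those of both ORM1 siRNAs.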

How the results depend on the processing

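No called change reversed under any alternative. Under siRNA 1 the PPT1 call was also lost with RLE scaling, no count filter and only the groups compared (adjusted p 0.0501, 0.0734 and 0.0678), and that of ATG16L1 with upper-quartile scaling (0.0528). Under siRNA 2, calls lost with no count filter were CTSD (0.0658), ATP6V1A (0.0625) and ATP6V0D1 (0.097, and 0.0505 with limma-voom), and with only the groups compared ATP6V0D1 (0.0647) and GABARAPL2 (0.05). Calls gained by DESeq2 were ATG7 (0.0273), CD63 (0.0131), CTSB (0.0451) and MAN2B1 (0.0459) under siRNA 1, and CTSH (0.0209, and 0.0477 with limma-voom) and GLB1 (0.0297) under siRNA 2. CTSC was gained under siRNA 1 with upper-quartile scaling (0.0438). At an adjusted p below 0.01, 21 members were lower and 5 higher under siRNA 1, and 19 and 6 under siRNA 2. For the mean of both siRNAs 23 were lower and 7 higher, and for siRNA 1 against siRNA 2 the numbers were 8 and 6. The shares of all tested genes at 0.01 were not counted. Each exon overlap given here is with the single gene that overlapped most, so the overlap with all genes together can be larger. For 12 members, at least 10% of exon bases overlapped a single other gene or at least 10% of 31-base words occurred in other genes. These were ATG7, BECN1, CTSA, CTSD, FUCA2, GABARAP, HEXA, MAN2B1, PPT1, SQSTM1, TPP1 and WIPI1. Leaving these 12 out was chosen after seeing the data. Without them, 5 members were higher under siRNA 1, 4 under siRNA 2 and 6 for the mean of both siRNAs. In that setting 7 were lower under siRNA 1 than under siRNA 2. Upper-quartile scaling gave a median of −0.022 for siRNA 1 over siRNA 2. When each library was left out in turn, siRNA 1 against control gave 21 to 24 lower and 5 to 8 higher members with medians of −0.172 to −0.119, and siRNA 2 against control gave 19 to 24 lower and 7 to 10 higher members with medians of −0.138 to −0.102. In the same way, the mean of both against control gave 24 to 27 lower and 7 to 11 higher with medians of −0.171 to −0.114, and siRNA 1 against siRNA 2 gave 9 to 14 lower and 6 to 7 higher with medians of −0.062 to −0.035. Calls for the mean of both siRNAs lost without single libraries were those of ULK1, GLB1, MAN2B1, CTSC and ATP6V0D1, and GLB1 was at −0.105 without control replicate 3. Deviations from the group means had correlations of −0.019 to 0.037 between same-numbered libraries of different groups, and −0.031 to 0.019 between differently numbered ones. All tested genes weighed alike in these values, also those with low counts, so they cannot settle whether the numbers pair libraries. With a replicate block, 24 members were lower and 8 higher under siRNA 1, 25 and 10 under siRNA 2, 27 and 10 for their mean, and 15 and 7 for siRNA 1 against siRNA 2. The standard error under siRNA 1 was 0.13 for TFEB, which had the lowest member count (401), and 0.023 for PSAP, which had the highest. Low counts and 3 libraries a group both limit which small changes can be called.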
